A study of Danio rerio with 6 samples.

Results

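Brain cells that carried the mpeg1-GFP reporter were compared between zebrafish homozygous for mutant csf1ra with 1 mutant copy of csf1rb (csf1ra-/-;b+/-, compound mutants) and wild-type control fish. The libraries were taken by their labelled genotype, which gave 2 compound mutant and 2 control libraries of 6 in all. The other 2 libraries came from csf1ra-/- fish, which differ from the compound mutants by label in csf1rb alone, and their values stand beside the results. They also entered the filter, the mean signal of a gene and the estimate of spread behind the p-values. All 3 groups shared the TLF x AB strain, an age of 9 to 12 months and the reporter line. A free-text label of the compound mutants reads as if both receptors were lost, but the genotype label gives csf1rb as heterozygous, and the genotype label was used. The mpeg1 promoter drives GFP in macrophages of more than 1 kind, so the sort does not separate microglia from other macrophages. Whether replicate libraries stem from different fish or pools is not labelled, so the p-values cover only how far these libraries differ, and that spread may be technical.

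The receptor CSF1R is a tyrosine kinase on macrophages that binds colony-stimulating factor 1 and interleukin 34, and its signal keeps tissue macrophages, microglia among them, alive and dividing. Zebrafish carry a pair of genes for it, csf1ra, which is also needed by pigment cells, and csf1rb. Microglia are the resident macrophages of the brain. They take up dying cells and debris, degrade them in lysosomes, present antigen on MHC molecules and release chemokines that call other leukocytes.

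The 4 libraries differed in depth in the same direction as the groups. Control libraries held 4241988 and 7830510 reads over the genes of the table and compound mutant libraries 15011963 and 13543998. Values are in units of signal, which are reads over the authors' scaled library size, and 1 read was worth between 0.0809 and 0.136 units in these 4 libraries. That library size was 1.73 times the total reads in control replicate 1, and between 0.802 and 1.03 times in the other 3, so control replicate 1 stands apart. Genes with at least 1 read numbered 21452 and 20723 in control against 18383 and 18047 in compound mutants, although the latter were sequenced more deeply. Across genes, Spearman's correlation was 0.827 between the compound mutant libraries and 0.667 between the control libraries, where genes do not count as independent replicates. The macrophage label held in all 4 libraries. The macrophage gene mpeg1.1 stood at 745 and 1079.8 units in control and 1808 and 3757 in compound mutants, and spi1b, a transcription factor of myeloid cells, at 225 and 499 in control and 1194 and 1229 in compound mutants. The microglial receptor gene p2ry12 was low in all 4, at 32.6 and 26.3 in control and 10.3 and 18.2 in compound mutants, and apoeb, an apolipoprotein gene of zebrafish microglia, stood at 4128 and 11447 and 7934 and 6244 in the same order, with groups that overlapped.

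More genes passed limma as higher than as lower in compound mutants, although by sign alone 46.4% of all genes tested lay above 0. Of 21316 genes tested, 259 passed limma at an adjusted p under 0.05 (1.22%), with 185 higher (0.868%) and 74 lower (0.347%). The groups did not overlap for any of the 259, nor for 58.6% of all genes tested. The calls depended on having both controls and on the csf1ra-/- libraries in the fit. With only the 4 libraries compared there were 0 calls (smallest limma adjusted p = 0.121). Without control replicate 1 there were 0 calls (smallest limma adjusted p = 0.209, 3850 genes at an unadjusted p under 0.05), and without control replicate 2 there were also 0 (smallest adjusted p = 0.094, 5922 at an unadjusted p under 0.05). All 259 genes kept their sign without control replicate 1, but this was fixed in advance, because their groups did not overlap. edgeR on the recovered reads gave 357 calls (1.67%), of which 209 were higher and 148 lower, and 233 were shared, which is 90% of the limma calls and 65.3% of the edgeR calls. The authors' deposited table holds 1420 higher (6.66%) and 3054 lower (14.3%) genes under a false discovery rate of 0.05 among those tested, and all 259 are among them. The balance of rises and falls depended on the scaling and on the test. In limma on total reads 126 genes were higher and 184 lower, as the median log2 difference of all genes moved from -0.16 to -0.70. Limma on median-ratio scaling gave 134 and 84, while DESeq2, a different test, gave 1159 and 2459 (17.0% of genes).

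**Figure D1:**
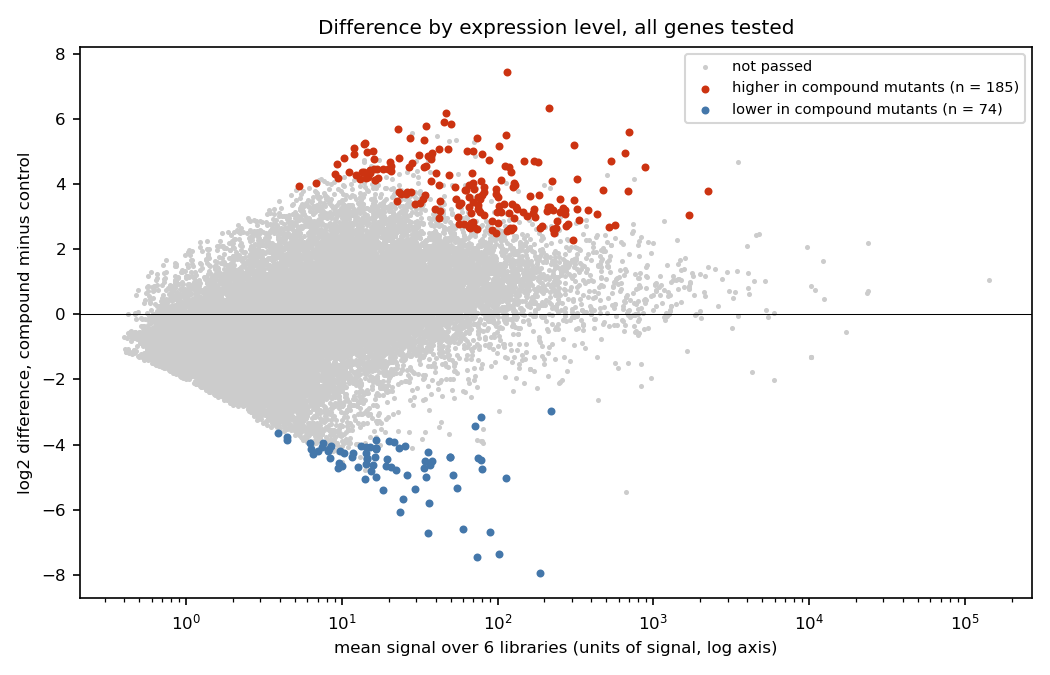
The log2 difference between compound mutants and control (vertical axis) is plotted against the mean signal over the 6 libraries (horizontal axis, log scale) for the 21316 genes tested, with each gene as 1 point. Red points are the 185 genes that rose and blue points the 74 that fell, and the grey cloud drifts from below 0 at low signal to above 0 at high signal.

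The direction of the difference followed the level of a gene. Among 4839 genes with a mean signal under 2, the median log2 difference was -1.01 and 16.1% of genes lay above 0, with 0 calls. The 1822 genes with a mean from 50 to 250 had a median of 0.98, 84% lay above 0, and 91 rose and 14 fell. Of 417 genes with a mean over 250, 25 rose and 0 fell. Of the 74 genes that fell, 43 had a mean from 10 to 50 over the 6 libraries, 14 from 50 to 250 and 17 from 2 to 10. Among the same 74, 51 had a mean under 1 unit in compound mutants and 12 had 0 reads in both of their libraries. For each gene group below, the median log2 difference is therefore to be read against -0.16 over all genes, or against 0.87 over the 5104 genes with a mean signal of 20 or more. A group of mostly low signal has a nearer background in the genes with a mean under 2 (-1.01) or from 2 to 10 (-0.57). Likewise, the rises and falls counted in a group are to be read against 0.868% and 0.347% of all genes tested. Counts near these shares say nothing particular about a group. Both shares cover all levels, and rises were more frequent at high signal (91 of 1822 and 25 of 417 genes above). In a list of genes with high signal, a share of rises above 0.868% therefore does not by itself set the list apart. Whether depth or library quality has a part in these medians was not tested.

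The CSF1 receptor genes were lower in compound mutants but missed the limma threshold. Transcripts of csf1rb stood at 901 and 1356 units in control, at 1432 and 783 in csf1ra-/- and at 329 and 173 in compound mutants. Both compound mutant libraries lay below the 4 others, and limma gave a log2 difference of -2.21 ± 0.54 (SE, n = 2 per group) with an adjusted p of 0.0706. Its adjusted p was 0.0529 with edgeR and 0.000603 with DESeq2, and the authors' deposited table gives it a false discovery rate of 0.0113. The reads do not separate alleles, so this value does not check the genotype. In bulk samples, fewer cells that use a gene and less RNA of it per cell cannot be told apart. The receptor csf1ra stood at 37.7 and 67.9 in control against 18.5 and 7.73 in compound mutants, with an adjusted p of 0.116 in limma, 0.109 in edgeR and 0.0190 in DESeq2. The ligand il34 was higher in compound mutants, with a mean of 54.6 ± 2.48 (SD, n = 2) against 8.36 ± 9.13 in control. Its log2 difference was 3.04, with an adjusted p of 0.101 in limma, 0.135 in edgeR and 0.0452 in DESeq2.

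Among signalling proteins that act below macrophage receptors, 1 of 59 tested genes rose and 0 fell, with a median log2 difference of 0.31 that turned to -0.40 on total reads. The gene that rose was hcst, which encodes an adaptor (DAP10 in mammals) that links surface receptors to phosphoinositide 3-kinase. It was at 4.49 and 11.5 in control, at 41.6 and 67.0 in csf1ra-/- and at 72.2 and 181 in compound mutants (3.80 ± 0.69 on the log2 scale, limma adjusted p = 0.0424). The related adaptor gene tyrobp, which encodes DAP12, stood at 5.58 and 9.39 in control and 84.7 and 56.7 in compound mutants with an adjusted p of 0.0628, and the phosphatase gene ptpn6 at 212 and 279 against 701 and 1013 (limma adjusted p = 0.0774). Outside the list, siglec15l, named for the sialic acid-binding lectin Siglec-15 that signals through DAP12 in mammals, rose from 44.6 and 175 to 1219 and 3482, a log2 difference of 4.52 ± 0.71 (limma adjusted p = 0.0306). Its csf1ra-/- libraries, at 196 and 183, lay close to the higher control library.

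Myeloid transcription factors had 2 rises and 0 falls of 53 tested, and their median was 0.74. The helix-loop-helix inhibitor gene id2a was at 104 and 89.7 in control and 635 and 1083 in compound mutants. Its csf1ra-/- libraries, at 376 and 317, lay between the groups, which did not overlap, and the log2 difference was 3.09 ± 0.49 (limma adjusted p = 0.0306). The other rise was batf3, a leucine zipper factor that mouse dendritic cells of the cross-presenting kind need, from 9.93 and 27.4 to 155 and 289 (3.59 ± 0.62, limma adjusted p = 0.0373). The myeloid factor spi1b, given above, had a log2 difference of 1.85 (limma adjusted p = 0.0823), and the interferon regulator irf7 stood at 38.9 and 17.8 against 160.1 and 332 (adjusted p = 0.0545). The AP-1 subunit junba, an immediate early gene, rose from 51.8 and 136 to 679 and 497 (limma adjusted p = 0.0496) as 1 of 40 immediate early genes.

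Of 65 genes of microglia and macrophage identity, 2 rose and 0 fell, with a median log2 difference of 0.72. The gene aif1l, related to the microglial marker Iba1, was at 33.5 and 93.7 in control, at 241 and 139 in csf1ra-/- and at 495 and 866 in compound mutants, with a log2 difference of 3.52 ± 0.61 (limma adjusted p = 0.0373). The ATP-gated channel gene p2rx7 rose from 52.2 and 102 to 418 and 492 (2.62 ± 0.51, limma adjusted p = 0.0476). Other members lay lower in compound mutants without passing limma. The organic anion transporter slco2b1 stood at 585 and 1192 in control against 149 and 120.1 in compound mutants, with csf1ra-/- at 459.5 and 146 (limma adjusted p = 0.0654), and it passed edgeR (adjusted p = 0.0417) and DESeq2 (0.000133). The apolipoprotein gene apoc1 stood at 6630.3 and 13984 against 2849.7 and 1995 (adjusted p = 0.0831 in limma, 0.0694 in edgeR and 0.00123 in DESeq2).

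**Figure D2:**
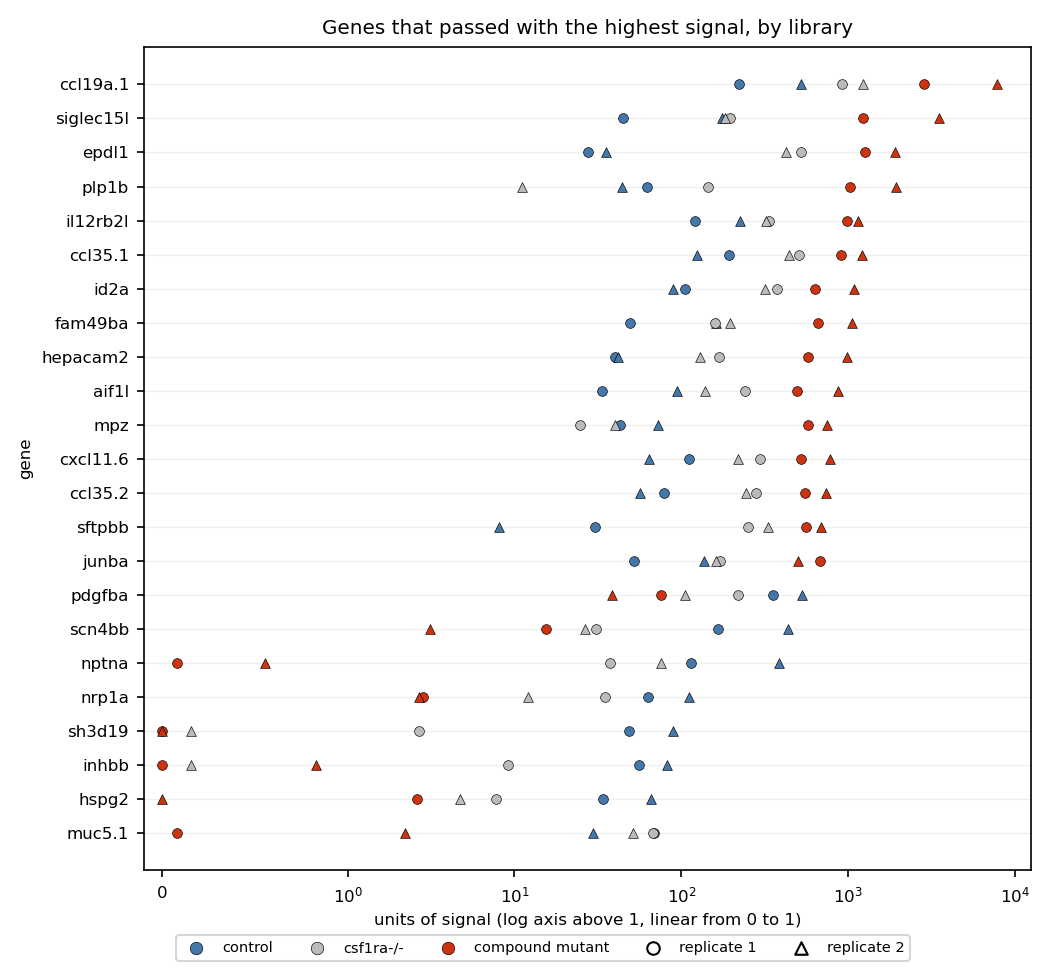
Signal in each of the 6 libraries (horizontal axis, log scale above 1 and linear below) is shown for the 15 genes with the highest signal among those that rose and for protein-coding genes with the highest signal among those that fell (rows). Genes deposited under clone names were left out, also where their signal was higher. In the rows from ccl19a.1 to junba both red compound mutant points lie right of both blue control points, and in the rows from pdgfba down they lie left of them.

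Actin regulators and integrins had 1 rise and 1 fall of 100 tested, beside 0.868% and 0.347% of all genes. Their median was 0.43 and turned to -0.22 on total reads. The integrin gene itgam.1, deposited under a clone name, encodes a relative of the alpha subunit of complement receptor 3, with which phagocytes bind complement-coated particles. It fell from 119 and 199.8 in control to 10.3 and 17.5 in compound mutants, a log2 difference of -3.43 ± 0.60 (limma adjusted p = 0.0379), and stood at 54.3 and 30.9 in csf1ra-/-. The actin-capping gene capgb rose from 19.6 and 25.7 to 129 and 150.2 (2.58 ± 0.50, limma adjusted p = 0.0476). The actin monomer binder pfn1 was at 1024 and 2457 in control against 7703 and 9724 in compound mutants (limma adjusted p = 0.0545), and arpc1b, a subunit of the actin-branching Arp2/3 complex, at 192 and 638 in control against 1971 and 3374 in compound mutants (adjusted p = 0.0541). For both genes the groups did not overlap, and neither passed limma. With edgeR the adjusted p was 0.0492 for arpc1b and 0.0581 for pfn1, and with DESeq2 it was 0.000878 and 0.00153. Beyond this list, fam49ba, whose mammalian relative restrains the GTPase Rac1, rose from 49.5 and 161 to 655 and 1048 (log2 difference 3.20, limma adjusted p = 0.0457). So did tiam1a, an exchange factor for Rac, from 34.4 and 25.4 to 384 and 392 (3.67, limma adjusted p = 0.0237).

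Antigen presentation held rises and falls of large size. Of 48 genes for MHC class I, class II and peptide loading, 5 rose and 2 fell, and the median was 0.98. Both falls were class II genes deposited under clone names, mhc2dgb and mhc2dga. The gene mhc2dgb was at 180.1 and 337 units in control, at 477 and 133 in csf1ra-/- and at 0 in both compound mutant libraries, which is at least 2028-fold lower when 3 reads in the group are taken as the floor. Its partner mhc2dga stood at 59.0 and 173 in control, at 206 and 101 in csf1ra-/- and at 0 in both compound mutant libraries, at least 919-fold lower by the same floor, and both bounds cover counting error only. The limma adjusted p was 0.00534 for mhc2dgb and 0.00776 for mhc2dga. They were also the only 2 of 21316 genes (0.00938%) that passed limma in compound mutants against csf1ra-/-, at adjusted p of 0.0102 and 0.0189. That comparison shares the compound mutant libraries with the one against control. Whether the fish of all groups carried the same MHC genes could not be examined and was not tested. A difference between fish in these genes therefore cannot be told apart from an effect of the csf1r genotype.

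Other class II genes were present in compound mutants. The gene mhc2daa stood at 1557 and 3322 in control and 4087 and 7846 in compound mutants (limma adjusted p = 0.174), and mhc2dab at 1702 and 3750.3 in control against 1906 and 2869.7 in compound mutants (adjusted p = 0.916). For mhc2dab the groups overlapped. The invariant chain gene cd74b was at 4289 and 10969.7 in control against 17273 and 26489.6 in compound mutants, and ciita, the master regulator of class II transcription, at 148 and 142 in control against 199 and 169 in compound mutants, with limma adjusted p of 0.115 and 0.662. Without control replicate 2 the log2 difference of mhc2dab turned from -0.11 to 0.46, and on total reads that of ciita turned from 0.34 to -0.38.

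The class I genes that rose were mhc1uka, mhc1zca, mhc1zea and 1 of the genes under the symbol mhc1zaa. Another entry under mhc1zaa was at 13.2 and 24.0 in control and 10.4 and 9.85 in compound mutants. Its log2 difference was -0.76 (limma adjusted p = 0.486). The gene mhc1uka was at 4.62 and 3.83 in control, at 17.7 and 14.9 in csf1ra-/- and at 126 and 217 in compound mutants. By contrast mhc1uba stood at 1532 and 2071 in control, at 5.85 and 289.5 in csf1ra-/- and at 31.3 and 51.0 in compound mutants, without passing limma (adjusted p = 0.0661). The fifth rise of the list was the cathepsin gene ctss2.1, from 64.1 and 112 to 468 and 664, whose mammalian relative trims the invariant chain. MHC genes form families of similar copies, and how reads shared between copies were counted is not given in the sources used here, so the values of single members are uncertain. The proteasome activator psme1, which helps to make class I peptides, rose from 29.2 and 40.6 to 185 and 264 (limma adjusted p = 0.0496). It was the 1 rise among 52 proteasome genes, of which 46 lay above 0 at a median of 1.26.

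**Figure D3:**
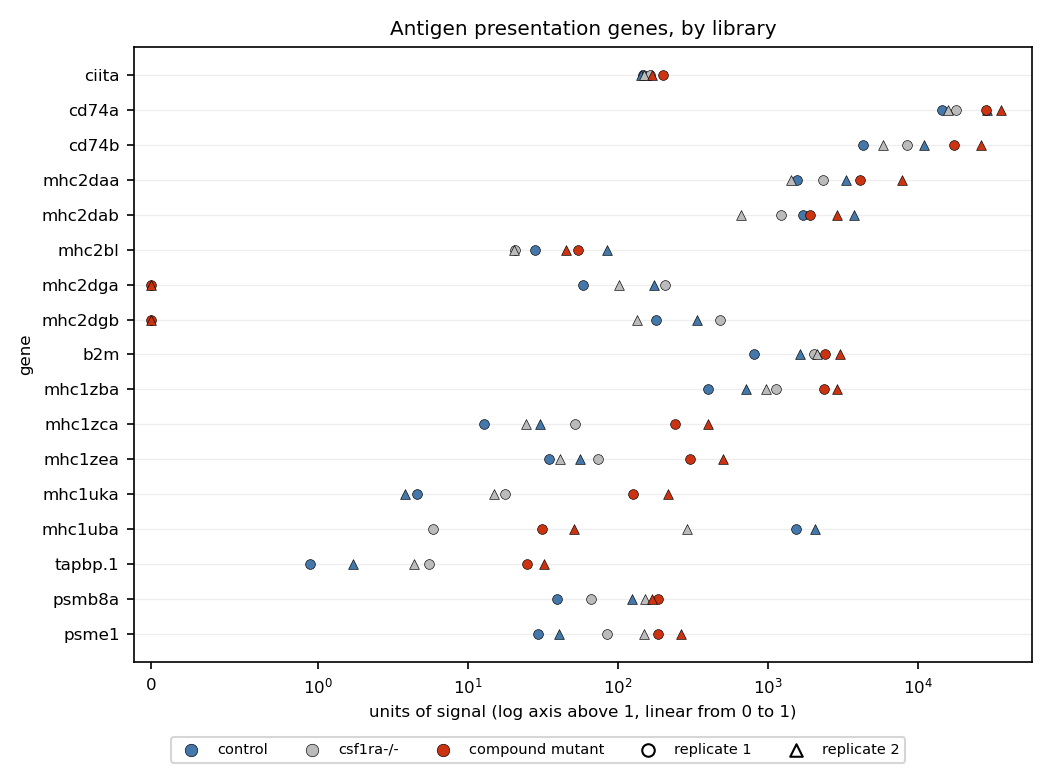
Signal in each of the 6 libraries (horizontal axis, log scale above 1 and linear below) is shown for class II genes with their regulator and chaperone, then class I genes with peptide loading and proteasome genes (rows), chosen after their values were seen. Both compound mutant points of mhc2dga and mhc2dgb lie at 0, while those of mhc2daa lie at 4087 and 7846.

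Single genes of immune receptors and regulators follow, which belong to no list here, and the clone-named ones were chosen after their values were seen. The gene cd59a, whose mammalian relative shields cells from the membrane attack complex of complement, was at 38.4 and 73.6 in control, at 144 and 171 in csf1ra-/- and at 1250.0 and 2244 in compound mutants. Its log2 difference was 4.95 ± 0.53 (limma adjusted p = 0.00776), and without control replicate 1 it was 4.49. The inhibitory receptor gene btla rose from 0.408 and 2.72 to 53.5 and 59.7, and pigrl4.2, of a family of immunoglobulin-like receptors, from 31.6 and 48.8 to 367 and 395 (limma adjusted p = 0.0306 and 0.0429). A gene of the NOD-like receptor family, nlrc11, fell from 179.9 and 177 to 11.9 and 31.1 (-3.14 ± 0.60, limma adjusted p = 0.0457). The receptor il12rb2l, related to the beta 2 chain of the interleukin 12 receptor, rose from 121 and 226 to 978 and 1146 (2.67 ± 0.49, limma adjusted p = 0.0424). The adhesion gene hepacam2 rose from 40.3 and 41.6 to 570.2 and 979, with csf1ra-/- at 169 and 130.0 (limma adjusted p = 0.00963).

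Chemokine genes and their receptors had 8 rises and 0 falls of 54 tested, at a median of 1.44. In addition to the CC chemokines ccl19a.1, ccl34b.8, ccl35.1 and ccl35.2 and the receptor ccr9a, 3 members of the cxcl11 family rose, whose mammalian relatives attract T cells through CXCR3. Their signal went from 22.7 and 24.0 to 173 and 267 for cxcl11.5, from 111 and 64.1 to 523 and 783 for cxcl11.6 and from 76.4 and 50.5 to 425 and 656 for cxcl11.7. Their limma adjusted p ranged from 0.0306 to 0.0400. The csf1ra-/- libraries lay above both controls for each of the 3, at 298 and 218 for cxcl11.6. In Toll-like receptor and NF-kB signalling, 3 of 83 genes rose and 0 fell. They were the adaptor myd88, from 8.30 and 8.15 to 121 and 182, irak3, a kinase relative that restrains Toll-like receptor signals in mammals, from 23.0 and 29.4 to 193 and 290.1, and tlr3, a receptor for double-stranded RNA, from 22.6 and 26.9 to 181 and 127. The limma adjusted p was 0.0188, 0.0325 and 0.0496 in that order.

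Genes of cell death and survival had 4 rises and 0 falls of 50 tested, 44 members lay above 0, and the median was 1.23 (1.72 at a mean signal of 20 or more). Of the 4 rises, 3 belong to the BCL2 family. The pore-forming death gene baxa was at 6.53 and 2.96 in control, at 26.3 and 40.6 in csf1ra-/- and at 85.3 and 131 in compound mutants, a log2 difference of 4.29 ± 0.66 (limma adjusted p = 0.0288). Another entry under the symbol baxa, at 12.6 and 10.5 in control and 42.2 and 71.4 in compound mutants, did not pass limma. Its log2 difference was 2.16 (limma adjusted p = 0.0885). The BH3-only death gene bida rose from 36.7 and 45.6 to 266 and 226, and the BCL2 relative bcl2l10 from 48.1 and 62.7 to 391 and 616 (limma adjusted p = 0.0496 and 0.0429). The translation inhibitor pdcd4a rose from 13.1 and 14.2 to 86.1 and 115 (limma adjusted p = 0.0489). The survival gene mcl1a, at 239 and 472 against 1519 and 1657, and its copy mcl1b, at 72.0 and 128 against 439.7 and 415, did not overlap between groups and did not pass limma (adjusted p = 0.0599 and 0.0618).

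The genes of energy metabolism that passed were all rises, where 0.868% of all genes tested rose. Glycolysis genes had 2 rises and 0 falls of 39, with 19 members above 0 and a median of -0.05 that was -0.77 on total reads. Of the 19 members with a mean signal of 20 or more, 15 lay above 0 at a median of 1.43. The enolase gene eno1a was at 61.1 and 62.7 in control, at 74.9 and 113 in csf1ra-/- and at 328 and 513 in compound mutants (2.71 ± 0.50, limma adjusted p = 0.0424), and the aldolase gene aldocb rose from 27.9 and 46.9 to 279 and 197 (adjusted p = 0.0475). Nuclear genes of the respiratory chain lay above 0 in 89 of 99 members at a median of 0.86, and 3 rose, cox6b1, cox4i2 and cox7a1. At a mean signal of 20 or more, 74 of 82 lay above 0 at a median of 0.84, beside 4020 of 5104 genes and 0.87 over all genes at that level. Of 13 mitochondrially encoded genes 12 lay above 0, and mt-nd4l, a complex I subunit, rose from 8.84 and 20.3 to 123 and 105 (limma adjusted p = 0.0496). Of 72 genes for mitochondrial ribosomal proteins 61 lay above 0 at a median of 1.09 (0.99 at a mean signal of 20 or more), and 1 rose. That gene, mrpl51, was at 0.544 and 0 in control, at 19.1 and 23.2 in csf1ra-/- and at 22.4 and 31.3 in compound mutants (limma adjusted p = 0.0373). Without control replicate 1 the medians were 0.24 for the nuclear respiratory genes and 0.39 for the mitochondrial ribosome, beside -0.14 over all genes.

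Of genes against oxidative damage and of the pentose phosphate pathway, 0 of 42 passed limma or edgeR, 15 had an unadjusted limma p under 0.05 and DESeq2 called 10 higher and 1 lower, at a median of 1.09. The glutathione peroxidase gene gpx1a stood at 138 and 332 in control and 847 and 1712 in compound mutants (limma adjusted p = 0.0628). Lysosomal genes had 3 rises and 0 falls of 74 at a median of 1.17, namely the granulin genes grn1 and grn2 and the cathepsin gene ctss2.1. A lysosomal thioesterase gene outside that list, ppt2a.2, deposited under a clone name and chosen after its values were seen, rose from 76.2 and 151 to 1133 and 1961 (3.78 ± 0.59, limma adjusted p = 0.0306). In vesicle trafficking, at a median of 0.43 that turned to -0.14 on total reads, 3 of 163 genes rose, the small GTPase genes rab24, arl1 and arl5a, and in autophagy 1 of 46, wipi2, which marks forming autophagosomes. The gene rab24 went from 5.71 and 3.33 to 76.6 and 109 and wipi2 from 0.544 and 1.36 to 35.6 and 64.6 (limma adjusted p = 0.0306 and 0.0349). Of 26 subunits of the vesicle proton pump, 0 passed limma or edgeR, 6 had an unadjusted limma p under 0.05 and DESeq2 called 1 higher.

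**Figure D4:**
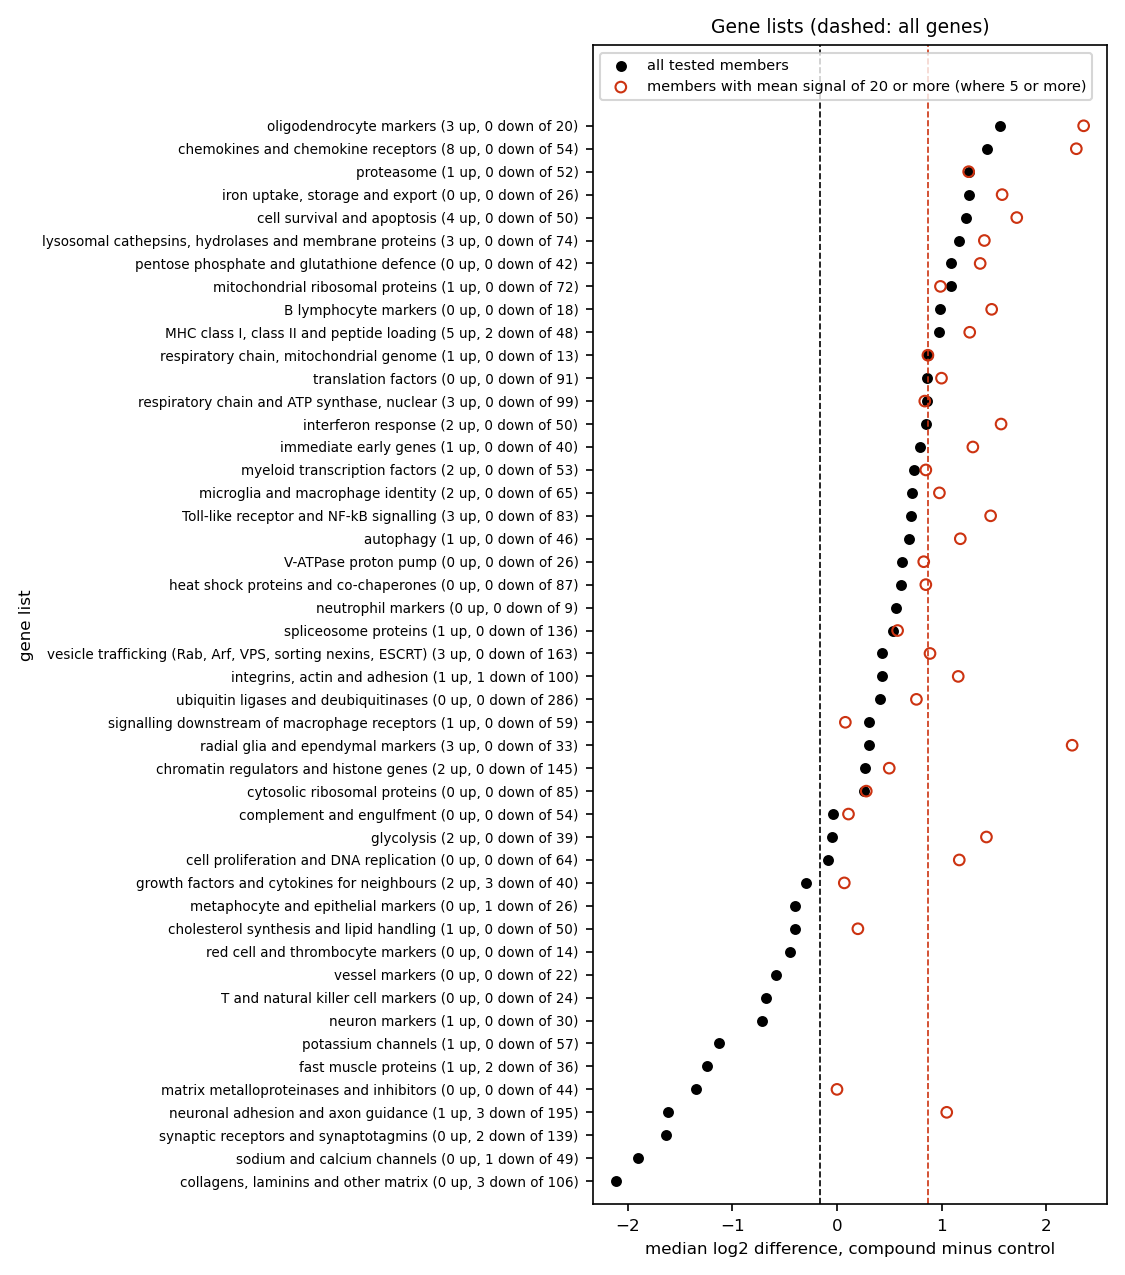
The median log2 difference between compound mutants and control (horizontal axis) is shown for each gene list with at least 9 tested members (rows, with the numbers of members that rose and fell), over all members (black) and over members with a mean signal of 20 or more (open red circles). Dashed lines mark the medians over all genes, -0.16 and 0.87, and collagens and other matrix genes lie lowest at -2.11.

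Secreted factors that act on neighbouring cells changed in both directions, with 2 rises and 3 falls of 40 at a median of -0.30. The platelet-derived growth factor gene pdgfba fell from 353 and 531 in control to 75.8 and 38.4 in compound mutants, with csf1ra-/- at 217 and 106 between them. Its log2 difference was -2.98 ± 0.57 (limma adjusted p = 0.0469). The activin subunit inhbb fell from 56.0 and 81.9 to 0 and 0.829 (limma adjusted p = 0.0455) and the matrix glycoprotein tnc from 35.5 and 51.0 to 0.0809 and 1.84 (adjusted p = 0.0424). The 2 rises were the granulin genes, which both this and the lysosomal list hold. The gene grn1 was at 31.1 and 25.6 in control, at 152 and 107 in csf1ra-/- and at 373 and 659 in compound mutants.

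In lists of matrix, channel and cell adhesion genes, most members had a low signal and lay below 0. All genes with a mean signal under 2 had a median of -1.01, and those from 2 to 10 one of -0.57. Of 106 genes for collagens, laminins and other matrix proteins, 98 lay below 0 at a median of -2.11, and 3 fell. Those were tnc, the perlecan gene hspg2, from a mean of 49.7 ± 22.2 (SD, n = 2) to 1.29 ± 1.83, and col6a3, from 52.9 and 32.2 to 2.99 and 1.01 (limma adjusted p = 0.0475 and 0.0496). The compound mutant libraries were at 2.59 and 0 for hspg2, which did not pass edgeR (adjusted p = 0.0743). Among 195 genes of neuronal adhesion and axon guidance, 3 fell and 1 rose, at a median of -1.62. The immunoglobulin-family gene nptna fell from 114 and 386 to 0.0809 and 0.552, and stood at 37.4 and 75.1 in csf1ra-/-. The semaphorin and vascular growth factor co-receptor nrp1a fell from 63.5 and 112 to 2.83 and 2.67 (-4.51 ± 0.74, limma adjusted p = 0.0327), and the protocadherin pcdh7b rose from 7.89 and 29.0 to 236 and 237 (adjusted p = 0.0429). Sodium and calcium channel genes had 1 fall of 49, scn4bb, from 166 and 438 to 15.5 and 3.13, and potassium channel genes had 1 rise of 57, kcnk18, from 0.136 and 0.988 to 131 and 512 (limma adjusted p = 0.0288 and 0.00776). Few members had a mean signal of 20 or more, and these did not lie mostly below 0 in each list. Of 16 such adhesion genes 11 lay above 0 at a median of 1.05, and both such potassium channel genes lay above 0 at a median of 4.40. Of 3 such matrix genes 1 lay above 0, at a median of -1.05, and the 1 such sodium or calcium channel gene lay below 0.

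Small RNA genes were also among the falls. Of 49 tested entries for mir-430, a microRNA cluster of early zebrafish embryos, 8 fell, with control means from 26.2 to 47.4 units and compound mutant means from 0.554 to 1.74. Of 12 entries for the spliceosomal RNA U2, 5 fell, from control means of 76.8 to 131 to compound mutant means of 1.87 to 3.55. The csf1ra-/- means of these entries lay at 13.3 to 27.4 for mir-430 and 70.3 to 112 for U2. Entries of each kind are near-identical copies, so these 13 falls are not separate measurements and reads of single copies are uncertain. The libraries were made from cDNA with a kit for low RNA input, by the labels, and were not small RNA libraries.

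The summed signals of the oligodendrocyte list and of the radial glia and ependymal list were higher in compound mutants. The part of such cells in the results above was not tested. Of 20 oligodendrocyte markers 3 rose, mpz, plp1b and cldnk, with 12 members above 0 and 8 below at a median of 1.56. The summed signal of the list was 445 and 578 in control, against 575 and 650 in csf1ra-/- but 2932 and 4631 in compound mutants. The sum does not follow each member, as the list's median log2 difference in csf1ra-/- against control was -0.49. In csf1ra-/- mpz was at 24.8 and 40.0 and cldnk at 6.20 and 2.67, against 42.7 and 72.0 and 16.2 and 15.6 in control. The myelin gene mbpa stood at 176 and 195 in control and 718 and 1278 in compound mutants (limma adjusted p = 0.0510). The radial glia and ependymal list had 3 rises of 33, epdl1, glulb and s1pr1. Of these, only glulb was among the radial glia markers first planned. The summed signal of this list was 1180 and 4153 in control against 13950 and 10050 in compound mutants. The ependymin gene epd made up most of that sum in compound mutants, and stood at 79.4 and 1118 in control, at 3460.0 and 644 in csf1ra-/- and at 9922 and 5794 in compound mutants. The sum in compound mutants therefore mainly follows 1 gene and is no measure of radial glia. Of 30 neuron markers 20 lay below 0 at a median of -0.72, and 1 rose, stmn1b, from 11.6 and 24.9 to 336 and 629. The sums of this list were 166 and 195 in control against 394 and 839 in compound mutants. Without stmn1b they were 154 and 170.3 in control against 57.7 and 209.5 in compound mutants, so that the groups overlapped. The neuronal vesicle transporter slc17a7a was low in control, at 1.22 and 3.46, and did not pass limma (adjusted p = 0.118). It had 0 reads in both compound mutant libraries and in both csf1ra-/- libraries.

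Markers of other blood and skin cells gave few calls. Of 9 neutrophil, 18 B lymphocyte, 24 T and natural killer cell, 22 vessel and 14 red cell and thrombocyte markers 0 passed limma or edgeR, and 3, 3, 6, 6 and 7 had an unadjusted limma p under 0.05 in that order. DESeq2 called 1, 3, 1, 1 and 1 of them higher and 2, 0, 3, 4 and 2 lower. The neutrophil peroxidase gene mpx was at 9.93 and 0.247 in control and 0 in both compound mutant libraries. Summed B lymphocyte markers were at 200 and 292 in control, against 395 and 991 in csf1ra-/- with 453 and 743 in compound mutants. Of 26 metaphocyte and epithelial markers 1 fell, the mucin gene muc5.1, from 69.0 and 29.4 to 0.0809 and 2.21 (limma adjusted p = 0.0373), and its csf1ra-/- libraries, at 67.6 and 51.6, lay near the controls. The granulin gene grn2, first planned as a metaphocyte marker too, was counted only in the lysosomal and secreted factor lists. It rose from 7.62 and 12.1 in control to 90.1 and 164 in compound mutants (limma adjusted p = 0.0400). Of 36 fast muscle genes 2 myosin genes fell, myhz2 and myhz1.1, and the calcium channel gene ryr3 rose from 15.5 and 9.51 to 119.7 and 262 (limma adjusted p = 0.0306).

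The csf1ra-/- libraries were also set against control, and that comparison shares the control libraries with the one above. In csf1ra-/- against control limma called 0 genes (0%), at a smallest adjusted p of 0.0517, with 2167 genes at an unadjusted p under 0.05, and edgeR called 8. Of the 185 genes that rose, 172 had a higher mean in csf1ra-/- than in control. Of the 74 that fell, 69 had a lower mean. Both comparisons use the same controls, which favours a shared direction, so these counts are no separate support. Some rises had no step between the mutants, as for tlr3, at 131 and 214 in csf1ra-/- against 181 and 127 in compound mutants. Values of some genes with large rises show a step from csf1ra-/- to compound mutants, and none of those given here passed limma in that step. For hepacam2 the log2 difference between compound mutants and csf1ra-/- was 2.33 (limma adjusted p = 0.208), and for epdl1, at 524 and 425 in csf1ra-/- against 1266 and 1914 in compound mutants, it was 1.72 (adjusted p = 0.265). For plp1b, at 145 and 11.1 in csf1ra-/- against 1023 and 1928 in compound mutants, it was 5.06 (limma adjusted p = 0.143). The same difference was 4.34 for mpz and 5.16 for cldnk, both at a limma adjusted p of 0.0519.

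**Figure D5:**
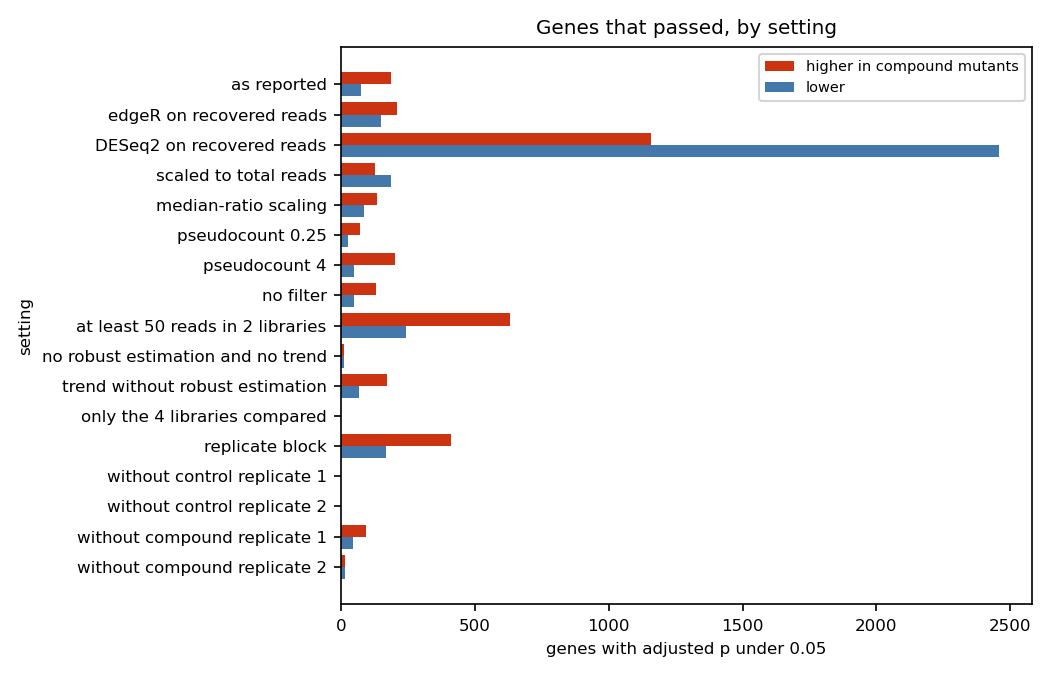
Bars give the number of genes at an adjusted p under 0.05 (horizontal axis, from 0) that were higher (red) or lower (blue) in compound mutants, for the test as reported and for each alternative setting (rows). Both bars are at 0 without control replicate 1, without control replicate 2 and with only the 4 libraries compared, and DESeq2 gives the longest bars at 1159 and 2459.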

How the data were processed

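The authors deposited 1 table of 21860 zebrafish genes with a signal value per library, headed CPM, for RNA of mpeg1-GFP positive brain cells sorted after trypsin and Percoll, per the labels' protocols. Division by the smallest non-zero value of its library gave whole numbers for 100% of values (within 0.001), so the signal is reads divided by a scaled library size and whole reads were recovered. HISAT2, edgeR and the build GRCz10 appear in the submitters' processing notes. Counting settings and strand were not given in the sources used here. Log2 fold changes and FDR values (p-value columns) deposited by the authors were used to count overlaps and for csf1rb: all 259 limma calls lie under a false discovery rate of 0.05 in the authors' deposited table, and make up 5.79% of its 4474 calls among the genes tested. Another 23 value columns were not used.

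The genes whose signal reached 1 in 2 or more of the 6 libraries were tested on log2(signal + 1) with limma 3.58.1 (intensity trend, robust estimation) in R 4.3.3, with 3 group means, no covariate and Benjamini-Hochberg adjustment at 0.05. Fold changes on this scale understate changes of low genes. SE is that of the moderated fit. edgeR 4.0.16 (quasi-likelihood) and DESeq2 1.42.0 on the recovered reads, other scalings, pseudocounts of 0.25 and 4, other filters, fewer libraries and a replicate block were alternatives. The fits were also run on simulated data with the same spread for every gene, which does not test the calls made here.

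Named genes were the receptors and ligands, the 15 higher and 15 lower calls of highest signal and the 5 of largest difference with names that are not clone-style, and up to 6 called members (or the 3 of smallest p) of each of 48 gene lists. Other genes named in the text were chosen after their values were seen. The comparison and the lists were chosen with earlier results of these data known, and 1 alternative, an intensity trend without robust estimation, was chosen after seeing the data. Clone-named genes took their symbols by gene ID from a current zebrafish name table, which matched 19304 of 21860 genes. No gene lengths were used, so the signal by which genes were binned, ranked or summed is not corrected for gene length.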

Additional observations from a re-analysis of the deposited data

How the results depend on the processing

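The number of genes that passed, 259 (185 higher, 74 lower), was not stable. It was 3618 (1159 and 2459) with DESeq2, 95 (71 and 24) with a pseudocount of 0.25, 872 (629 and 243) with at least 50 reads in 2 libraries and 19 (10 and 9) without robust estimation and trend. It was 0 (0 and 0) with only the 4 libraries compared, where the smallest limma adjusted p was 0.121, 5683 genes had an unadjusted p under 0.05 and fewer libraries estimate the spread. With 1 library left out it ran from 0 to 137 (higher from 0 to 93, lower from 0 to 44), and 27 passed without compound mutant replicate 2. The arm left with 1 library was assumed to vary like the other groups. The number lower moved to 148 with edgeR, 184 on total reads, 48 with a pseudocount of 4 and 46 without a filter. With the title number as a replicate block 576 passed (409 and 167). Deviations of control replicate 1 and compound mutant replicate 1 correlated at 0.018 across genes. That check leaves out the csf1ra-/- libraries, so it does not settle whether libraries of the same number belong together. With an intensity trend but no robust estimation, 234 passed.

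Of the log2 differences of 48 gene lists, 38 medians kept their sign on total reads, 40 with at least 50 reads in 2 libraries and 45 without control replicate 1, and all 48 with edgeR and median-ratio scaling. Single log2 differences turned on total reads for malat1 (-0.0011), cd74a (-0.0758), tmsb4x (-0.2624) and ciita (-0.3771). With 1 library left out, values ran from -0.0122 to 0.9284 for tmsb4x, -0.681 to 0.4582 for mhc2dab, -1.4847 to 0.3772 for zgc:158463 and -1.026 to 0.2855 for csf1b. The turn came without control replicate 1 for tmsb4x and without control replicate 2 for mhc2dab, zgc:158463 and csf1b, and for mhc2dab also without compound mutant replicate 1 (0.1836). The log2 difference of apoeb turned to -0.2747 with edgeR, -0.3269 with DESeq2, -0.2033 with median-ratio scaling and -0.6864 on total reads, and ran from -0.7016 to 0.7698 with 1 library left out, below 0 without control replicate 1 and without compound mutant replicate 1 (-0.1387). None of these genes passed limma, and the cause was not tested. At this depth 1 read in control replicate 1 is 0.136 units, and genes under a mean of 2 gave 0 calls in either direction.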

Other observations

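Further genes outside the lists rose in compound mutants, and those named here were chosen after their values were seen. Of the surfactant protein B family, sftpbb went from 30.2 and 8.03 units in control to 558 and 687 in compound mutants, and sftpba from 5.85 and 10.0 to 192 and 261 (limma adjusted p = 0.00963 and 0.0118). The csf1ra-/- libraries lay between the groups for sftpbb, at 252 and 329, and reached the level of the compound mutants for sftpba, at 132 and 291. The gene cd83, whose mammalian relative marks mature dendritic cells, rose from 6.94 and 0.370 to 70.9 and 77.5, and the tetraspanin gene cd82a from 5.30 and 15.7 to 147 and 156 (limma adjusted p = 0.0496 and 0.0327). In edgeR cd83 did not pass (adjusted p = 0.0776). The gene CYBC1, deposited under a clone name, encodes a chaperone of the phagocyte NADPH oxidase and rose from 17.5 and 16.9 to 144 and 117 (limma adjusted p = 0.0496). The lysosomal autophagy regulator dram1 rose from 20.1 and 2.47 to 127 and 166, and stood at 90.0 and 62.1 in csf1ra-/- (limma adjusted p = 0.0488). It did not pass edgeR (adjusted p = 0.0649). Of 145 chromatin regulators and histone genes 2 rose, the histone deacetylase gene hdac3, from 2.45 and 4.08 to 68.3 and 44.3, and the SWI/SNF subunit smarcb1b, from 2.04 and 3.33 to 43.5 and 48.8 (limma adjusted p = 0.0457 and 0.0429). Of 286 ubiquitin ligase and deubiquitinase genes, 91 translation factors and 85 cytosolic ribosomal protein genes, 0 passed limma in each list, 56, 26 and 6 had an unadjusted limma p under 0.05 in that order, while edgeR called 3 of the ubiquitin list and 0 of the others. DESeq2 called 11, 7 and 1 of them higher and 16, 2 and 0 lower.

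Clone-named genes made up 55 of the 185 genes that rose and 36 of the 74 that fell, and of these 12 and 7 carry another symbol in the current name table. The groups of genes described above therefore leave these genes out in large part.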
